A study of Mus musculus with 12 samples.

Results

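Lower abdominal muscle of AromhumL mice was compared with that of wild type (WT) mice on Illumina bead arrays, which read the brightness of biotin-labelled RNA on gene probes. AromhumL is a humanized aromatase transgenic line, described in the labels as having lower human aromatase expression than its companion line AromhumH. The comparison rests on 8 of the 12 arrays, 4 of AromhumL and 4 of WT, chosen by their titles. The other 4 arrays are of AromhumH. All mice were male, of the FVB/N strain and 1 month old, and WT mice were the controls. The promoter of the transgene is not given in the sources used here. The labels do not say whether the arrays of a group came from different mice. The p-values therefore reflect the spread from array to array, part of which may be technical. Of 45281 probes, 19004 were detected (detection p under 0.05) on at least 4 of the 12 arrays and were tested. They represent 10575 named genes, each taken at its brightest probe.

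Aromatase converts androgens to oestrogens, so more of it in a tissue can raise local oestrogen and use up androgen. Androgens maintain skeletal muscle through the androgen receptor. Oestrogens act on many connective tissue cells through oestrogen receptor alpha, and in muscle the fibroblasts between the fibres make most of the collagen. Lower abdominal muscle belongs to the wall through which inguinal hernias pass.

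The arrays carried the RNA of skeletal muscle. The 7 muscle markers, among them the skeletal actin Acta1 and creatine kinase Ckm, had a mean normalized log2 intensity of 14.15 to 14.18 on the WT arrays and 14.15 to 14.22 on the AromhumL arrays. Mean raw intensity per array was 267.4, 282.6, 359.8 and 361.7 in WT and 221.6, 272.7, 273.9 and 267.6 in AromhumL. WT 2, WT 3 and WT 4 were thus brighter than every AromhumL array, WT 1 lay among them, and AromhumL 1 was the dimmest array of all. The group means were 317.9 ± 49.9 in WT and 259 ± 25 in AromhumL (SD, n = 4, two-sided exact permutation p = 0.114, where the smallest possible is 0.0286). Between 17683 and 18611 probes were detected on the WT arrays and between 17198 and 17903 on the AromhumL arrays (exact permutation p = 0.0571). Correlations of AromhumL arrays with WT arrays, 0.973 to 0.989, covered the range among AromhumL arrays, 0.980 to 0.986.

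No probe changed between AromhumL and WT muscle. At an adjusted p under 0.05 (limma, adjusted by the Benjamini-Hochberg method over all 19004 probes) 0 probes passed, which is 0%, and the smallest adjusted p was 0.653. Unadjusted p-values were below 0.05 for 1451 probes (7.64%), where 950.2 would be expected if no probe differed. Of these, 732 were higher in AromhumL (3.85%) and 719 lower (3.78%), so 50.4% were higher; with arrays scaled to a common median in place of quantile normalization, 76.5% of 1947 were higher. The number of probes under that unadjusted limit was 2263 without WT 1, 705 without WT 4, 956 without AromhumL 2 and 838 with array brightness as a covariate. All 4 AromhumL arrays lay on the same side of all 4 WT arrays for 741 probes (3.9%). The median size of a log2 change was 0.14 and its median standard error 0.16. The whole 95% confidence interval lay within 1 log2 unit of 0 for 18440 probes (97%), and within a 1.5-fold change for 13294 (70%). A larger difference can therefore not be left out for the remaining probes, and 24 probes (0.126%) had a mean difference above 1 log2 unit, 5 higher and 19 lower in AromhumL.

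**Figure D1:**
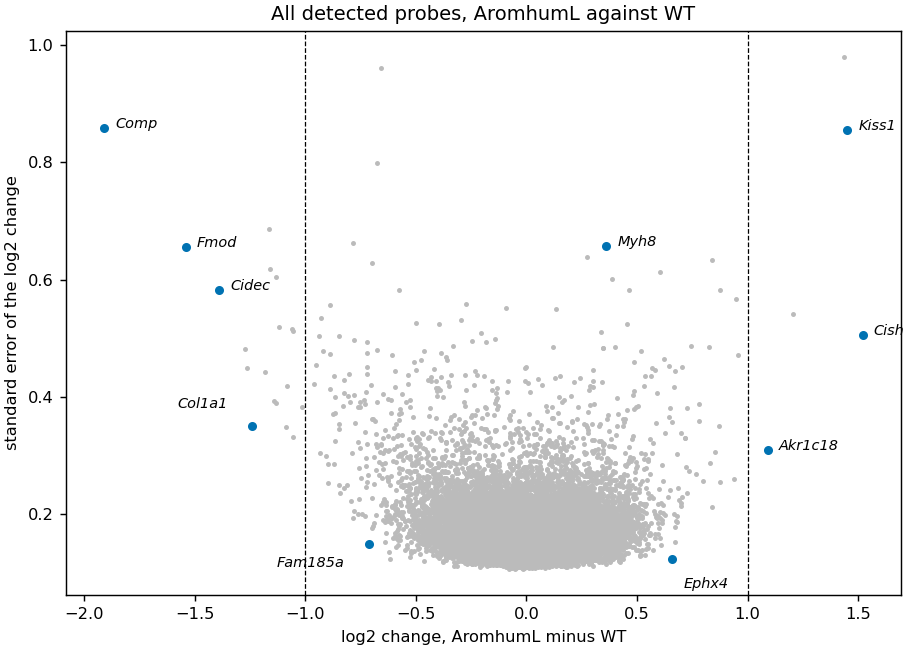
Each point is 1 of the 19004 detected probes, placed by its log2 change (AromhumL minus WT, horizontal) and the standard error of that change (vertical); dashed lines mark 1 log2 unit. The largest mean differences, such as Comp at −1.91 and Kiss1 at 1.45, had large standard errors, and 0 probes passed the adjusted threshold.

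The genes that came nearest to the threshold are given as values, since each had an adjusted p of 0.653 by limma. They were picked because their groups did not overlap, which is so for 448 of 10575 genes (4.24%), 270 higher in AromhumL (2.55%) and 178 lower (1.68%). Among all genes, 51.3% had a mean above 0, and 4.63% were higher at an unadjusted p under 0.05. On the authors' deposited processed values the change was over 1.5 times smaller for 71 of the 109 genes named by rule, and turned sign for 0.

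Ephx4, an epoxide hydrolase family member, had the smallest p of all. Its normalized log2 intensity was 5.39, 5.60, 5.27 and 5.62 on the AromhumL arrays and 4.77, 4.81, 4.97 and 4.70 on the WT arrays. The AromhumL mean was 1.58-fold higher (log2 0.66, 95% interval 0.39 to 0.92), but it was log2 0.12 on the deposited processed values, and another Ephx4 probe stood at −0.25. Pfkfb3, whose enzyme makes the bisphosphate that speeds up glycolysis, stood at 5.82, 5.21, 5.41 and 5.05 in AromhumL and between 4.60 and 4.81 in WT, where it was detected on 3 of 4 arrays (log2 0.67, interval 0.35 to 1.00, and 0.12 on the deposited processed values). No other member of 23 measured glycolysis and glycogen genes had an unadjusted p under 0.05 in either direction, and the median of that list was −0.01. Cldn10, a tight junction claudin, was at 8.24 to 8.55 in AromhumL and 7.23 to 8.13 in WT (log2 0.84, interval 0.39 to 1.29), with its other probes at 0.16 and 0.30.

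Other genes with higher means encode proteins of unrelated kinds. Cog8, part of the complex that tethers vesicles at the Golgi, stood at 0.61, Nus1, needed for dolichol synthesis, at 0.57, and Rnf114, a ubiquitin ligase, at 0.55. Cyb5rl, related to cytochrome b5 reductase, stood at 0.52 and Umps, which completes uridine monophosphate synthesis, at 0.51, with its other probes between −0.12 and 0.23. On the deposited processed values Rnf114 was at 0.14, Cyb5rl at 0.17, Umps at 0.10 and Nus1 at 0.28, whereas Cog8 was at 0.42. The interferon-induced tetherin gene Bst2 had 5.82 to 6.03 in AromhumL and 4.94 to 5.73 in WT (log2 0.67, interval 0.29 to 1.05, and 0.15 on the deposited processed values). Eif2ak2, the kinase that senses double-stranded RNA, stood at 0.51 (interval 0.24 to 0.79). Yet the 21 measured interferon-stimulated genes, Bst2 among them, had a median of 0.06, and Rsad2, an antiviral enzyme of the same list, stood at −0.45. Larger mean differences without overlap were those of Akr1c18, a reductase that inactivates progesterone (log2 1.09, interval 0.43 to 1.74), Pi16, a marker of a fibroblast subset (0.94, 0.39 to 1.49), Slpi, a secreted protease inhibitor (0.77, 0.19 to 1.34), and Cyp4f39, a fatty acid hydroxylase (0.72, 0.12 to 1.32). Pi16 was at 9.80, 9.88, 10.21 and 9.46 in AromhumL and at 9.19, 8.94, 9.30 and 8.16 in WT, so the groups were separated by a small gap. On the deposited processed values Pi16 was at 0.77, Slpi at 0.35, Akr1c18 at 0.28 and Cyp4f39 at 0.27.

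Among the genes with lower means, Fam185a, a gene of little known function, came first. It stood at 7.26, 6.96, 7.10 and 6.91 in AromhumL and 8.13, 7.62, 7.76 and 7.55 in WT, a mean 1.64-fold lower (log2 −0.71, interval −1.03 to −0.39), and its other probe stood at −0.53. Dpt, which encodes dermatopontin, a small matrix protein that binds decorin and collagen, was at 10.13 to 10.53 in AromhumL and 10.64 to 11.22 in WT (−0.60, interval −0.94 to −0.27). Timp4, an inhibitor of matrix metalloproteinases, stood at 5.61 to 6.29 against 6.37 to 6.92 (−0.73, interval −1.15 to −0.31). The signalling genes Dusp4, a phosphatase of MAP kinases, and Fgf18, a fibroblast growth factor, stood at −0.74 and −0.51. Gmps, of guanine nucleotide synthesis, stood at −0.52 and Sphkap, an anchoring protein for protein kinase A, at −0.54. On the deposited processed values Dpt was at −0.57, Fam185a at −0.38, Timp4 at −0.24, and Dusp4, Gmps, Sphkap and Fgf18 lay between −0.17 and −0.09.

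The largest mean differences without overlap on the lower side were those of secreted proteins. Col1a1, the alpha-1 chain of type I collagen, was at 10.81, 11.30, 10.92 and 10.64 in AromhumL and at 11.39, 12.01, 12.13 and 13.09 in WT, a mean 2.36-fold lower (log2 −1.24, interval −1.98 to −0.49). Wif1, an inhibitor of Wnt ligands, stood at −1.13 (interval −1.96 to −0.31) and C1qtnf3, a secreted protein of the C1q and TNF superfamily, at −0.91 (interval −1.54 to −0.27). Probes named Ccl21a and Ccl21c, near-identical copies of a chemokine that attracts T cells and dendritic cells, stood at −1.27 and −1.14, and the array cannot be relied on to tell these copies apart. On the deposited processed values Col1a1 was at −1.23, Ccl21c at −0.91, Ccl21a at −0.87, C1qtnf3 at −0.52 and Wif1 at −0.31.

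**Figure D2:**
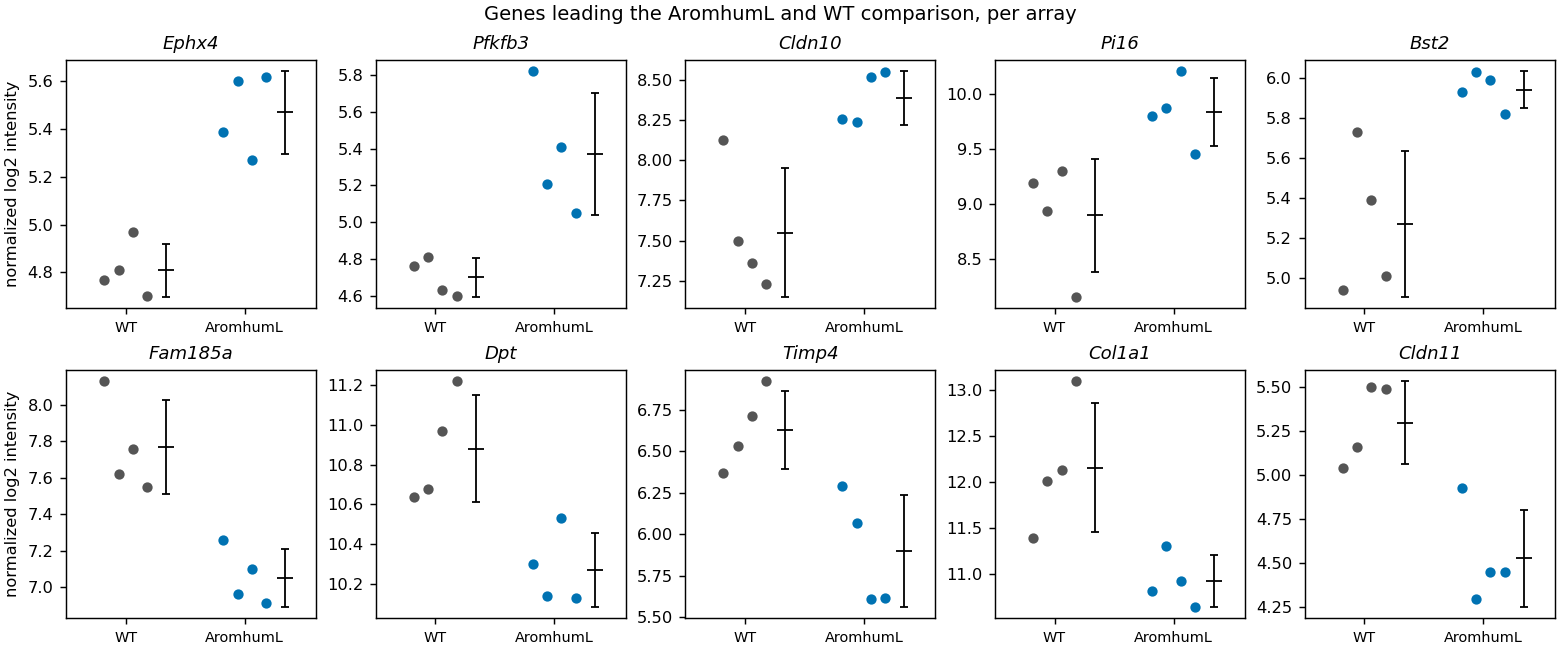
Normalized log2 intensity (vertical) of 10 genes on each WT and AromhumL array; points are arrays and the bar beside them is the mean ± SD (n = 4). The groups do not overlap in any panel, which is how the genes were picked, and each gene has an adjusted p of 0.653.

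Some probes were detected on all arrays of 1 group and on few or none of the other. Of the 19004 tested probes, 30 were detected on 4 AromhumL arrays and on at most 1 WT array, and 139 the other way round. With 0 detected arrays in the other group, the counts were 5 and 32. AromhumL arrays had fewer detected probes in general, as given above, and the part of this in these counts was not tested. Rfx7, a winged-helix transcription factor, was detected on 4 WT and 0 AromhumL arrays and was at least 1.2-fold lower. Gap43, a growth cone protein of neurons and Schwann cells, was detected on 4 WT and 0 AromhumL arrays (at least 1.24-fold lower). Cldn11, a claudin of myelin and Sertoli cells, was detected on 4 WT arrays and 1 AromhumL array, at 4.30 to 4.93 against 5.04 to 5.50 (log2 −0.76). Cdc26, a subunit of the anaphase-promoting complex, was at −0.58, with 4 WT arrays and 1 AromhumL array detected. In the other direction Atp8b2, a phospholipid flippase, was detected on 4 AromhumL and 0 WT arrays (at least 1.15-fold higher), and the activity-induced transcription factor Npas4 on 4 AromhumL arrays and 1 WT array (0.42). For each bound, the mean of the brighter group was divided by that of the dimmer group, a dim array being counted at no less than its lowest detected signal.

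Collagen genes lay below 0 almost throughout. Of 26 measured collagens 23 were lower in AromhumL and 3 higher, where 48.7% of all genes were lower. Their median log2 change was −0.33, against 0.01 over all genes, and 4 had an unadjusted p under 0.05, all of them lower (3.57% of all genes were lower at that limit). No collagen passed the adjusted threshold. The mean level of the 26 genes was 7.97, 8.11, 8.20 and 8.56 on the WT arrays and 7.62, 8.05, 8.11 and 7.71 on the AromhumL arrays. AromhumL 2 and 3 were thus within the WT range and AromhumL 1 and 4 below it. In bulk tissue, fewer cells of a type and less RNA per cell cannot be told apart.

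Within the family the type I chains differed most. Col1a2, the partner chain of Col1a1, stood at 6.74, 7.78, 7.32 and 7.06 in AromhumL and 6.84, 8.31, 8.05 and 9.55 in WT (log2 −0.96, interval −1.86 to −0.07). Col3a1, of type III collagen, stood at 10.70, 11.46, 11.89 and 11.48 against 11.29, 11.68, 12.30 and 12.90 (−0.66, interval −1.34 to 0.01, adjusted p = 0.659 by limma), and its other probe at −0.22. The highest value of all 3 genes was that of WT 4. Col14a1, which decorates fibril surfaces, stood at −0.49 with another probe at −0.13, and Col26a1 at −0.65 with another probe at 0.07. The basement membrane chains Col4a1 and Col4a2 stood at −0.31 and −0.34 and the beaded filament chains Col6a1 and Col6a2 at −0.45 and −0.50.

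Non-collagen matrix genes leaned the same way. Of 38 measured glycoproteins and proteoglycans 29 were below 0 (median −0.18), and 7 had an unadjusted p under 0.05, all lower, where 48.7% of all genes were below 0 and 3.57% lower at that limit. The list shares members with others, such as Comp and Fmod with the tendon and cartilage genes and Dpt, Lum, Dcn and Mfap5 with the fibroblast markers. These lists are therefore not independent. With array brightness as a covariate the median was −0.06, with 23 below 0 and 1 lower at that limit, and it was −0.09 without AromhumL 1 and −0.29 without AromhumL 3. Mfap4, an elastic fibre protein, stood at 9.15, 9.52, 9.74 and 9.40 in AromhumL and 9.43, 10.72, 10.22 and 10.74 in WT (−0.82, interval −1.34 to −0.31). Eln, elastin itself, stood at −0.57 (interval −1.11 to −0.02) and at 0.01 on another probe, and Lamb1, a laminin chain of basement membranes, at −0.50. The 30 measured matrix processing enzymes did not lean this way as a list (median −0.04, 19 below 0). In that list P4ha1, which hydroxylates collagen prolines, was above 0 (0.40) with no overlap between groups. Of the measured cross-linking lysyl oxidases, Lox stood at −0.57, Loxl4 at −0.61 with another probe at −0.15, and Loxl1 at 0.11. The 16 fibroblast markers had a median of −0.10 with 7 above 0 and 9 below, and their mean level ran from 8.82 to 9.02 in WT and from 8.81 to 9.10 in AromhumL. The part of fibroblast number in the collagen values was not tested.

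The matrix values moved with array brightness. With the mean log2 raw intensity of each array as a covariate, the median of the 26 collagens was −0.04 with 16 below 0. That of the 9 fibril-forming collagens went from −0.31 to 0.05, so its direction turned, and it was −0.13 without WT 4. With the same covariate Col3a1 stood at 0.05, Eln at −0.05 and Col1a2 at −0.28. Col1a1 still stood at −0.81 and Dpt at −0.46. Brightness also runs along the groups, since the AromhumL arrays had the lower mean, and with 4 arrays a group its part and that of the genotype cannot be told apart for these genes.

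**Figure D3:**
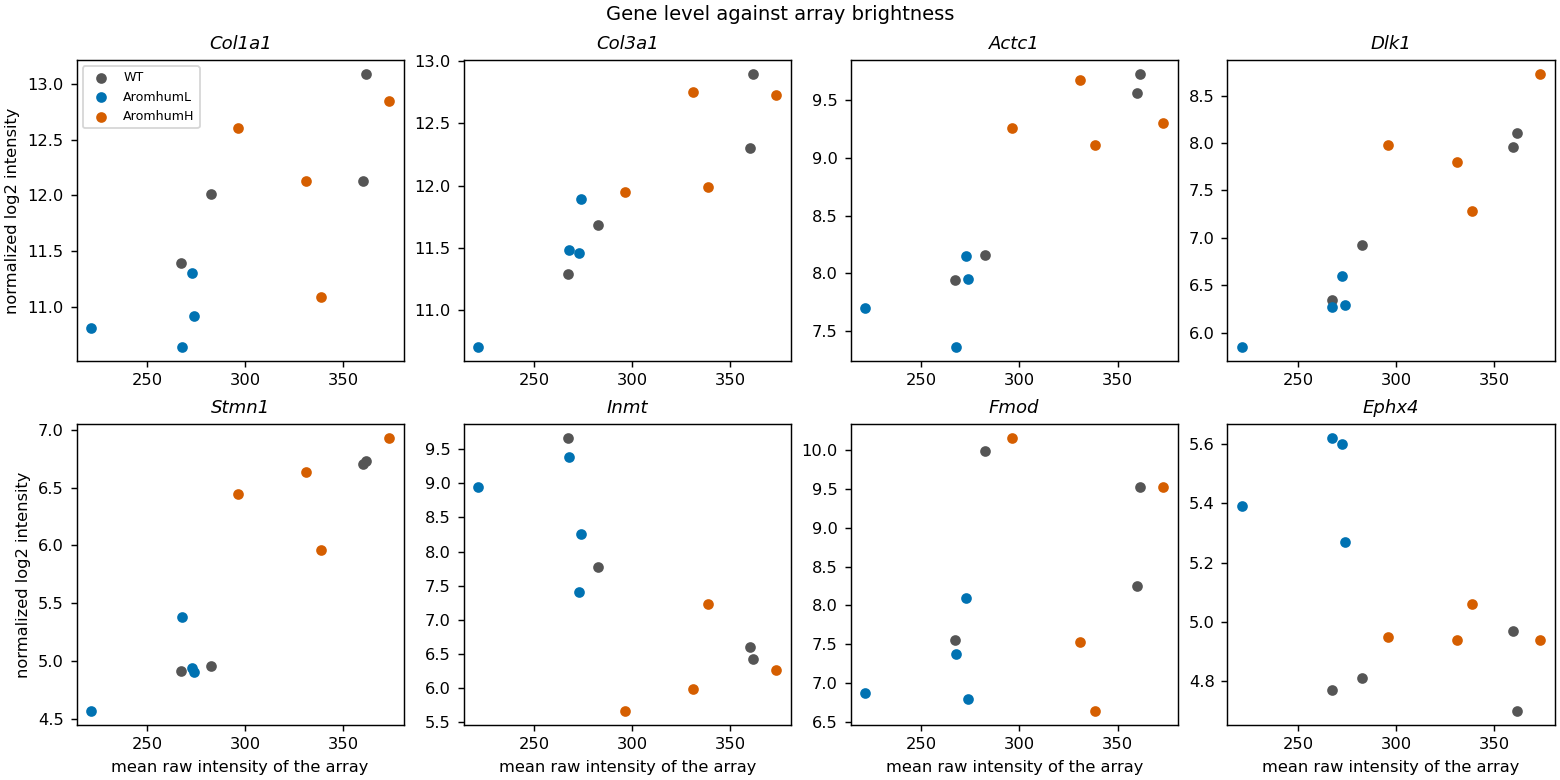
Normalized log2 intensity of 8 genes (vertical) against the mean raw intensity of each of the 12 arrays (horizontal), coloured by group. For Actc1, Dlk1, Stmn1 and Col3a1 the brighter arrays of WT, WT 3 and WT 4, are higher than WT 1 and WT 2, which lie near the AromhumL arrays; for Ephx4 all 4 WT arrays are below the AromhumL arrays.

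Tendon and cartilage genes had the median farthest from 0 of the lists described here, and wide intervals. Comp, cartilage oligomeric matrix protein, was at 5.89, 8.11, 5.54 and 7.38 on the AromhumL arrays and 7.11, 9.83, 8.27 and 9.35 on the WT arrays (log2 −1.91, interval −3.73 to −0.08), and at −1.13 on another probe. Fmod, fibromodulin, a proteoglycan of tendon, was at 6.87, 8.10, 6.80 and 7.37 against 7.55, 9.99, 8.25 and 9.52 (−1.54, interval −2.93 to −0.15), with another probe at −0.94. In both groups arrays 2 and 4 were the higher ones, and the groups overlapped. Kera, keratocan, stood at −1.27 (interval −2.30 to −0.25) and Chad, chondroadherin, at −1.16. Scx, the transcription factor of tendon precursors, stood at 0.05 and Sox9, that of cartilage, at 0.03. Of 15 list members with a probe 7 were measured, and Tnmd, a tendon-defining gene, was not detected on enough arrays. The median over the 7 was −1.16, and −0.56 with brightness as a covariate. It was −1.58 without WT 1, −0.79 without AromhumL 3, −0.40 on the deposited processed values and −0.62 without background correction.

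All 14 measured adipocyte markers were below 0, with a median of −0.53, and 2 had an unadjusted p under 0.05, both lower, where 48.7% of all genes were below 0 and 3.57% lower at that limit. Cidec, a lipid droplet protein, was at 6.14, 4.94, 5.25 and 6.38 in AromhumL and 5.71, 7.58, 7.81 and 7.19 in WT (−1.39, interval −2.63 to −0.15). WT 1 lay among the AromhumL arrays. The adipokine Adipoq stood at 10.41, 9.63, 10.09 and 10.42 against 9.95, 11.19, 10.94 and 10.77 (−0.58, interval −1.81 to 0.66, adjusted p = 0.804 by limma), again with WT 1 within the AromhumL range. Cidea, found in brown fat and in some white fat, had 9.45 on WT 3 and 5.64 to 6.40 on every other WT and AromhumL array; without WT 3 its change was −0.11. The mean level of the list was 7.64 to 8.76 in WT and 7.53 to 7.92 in AromhumL. With brightness as a covariate all 14 were still below 0, at a median of −0.20; without WT 3 the median was −0.29, on the deposited processed values −0.17 and without background correction −0.28. Ucp1, which defines brown fat, was not detected on enough arrays.

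Erythroid genes showed a like lean. Of 9 measured markers 8 were below 0 (median −0.60, against 48.7% of all genes below 0). At an unadjusted p under 0.05, 1 was lower, where 3.57% of all genes were lower. It was Car2, a carbonic anhydrase of red cells and other cells (−0.32), a dim gene detected on 4 WT and 2 AromhumL arrays. The alpha-globin probe Hba-a1 was at 13.22, 12.35, 12.55 and 13.09 in AromhumL and 12.73, 13.23, 14.12 and 13.74 in WT (−0.65, interval −1.35 to 0.05, adjusted p = 0.663 by limma). Globin genes have near-identical copies, so single globin genes are uncertain. The median of the erythroid list was −0.70 with brightness as a covariate, so this list did not move towards 0 with it, and it was −0.36 without WT 3 and −0.35 on the deposited processed values. Blood left in the tissue was not measured.

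Muscle fibre genes stood near 0. The 17 fast-fibre contractile genes had a median of −0.01 and none had an unadjusted p under 0.05. Their mean level was 13.73 to 13.76 on the WT and AromhumL arrays, near the top of the intensity scale. Whether the normalized values can show a change at that level was not tested. Myh4 and Myh1, the myosin heavy chains of fast fibres, stood at −0.03 (interval −0.27 to 0.21) and −0.05 (interval −0.34 to 0.23). Another Myh1 probe, of lower intensity (9.06 to 11.15 in WT and 9.23 to 9.95 in AromhumL), stood at −0.56. The 16 slow-fibre genes had a median of 0.03. Ankrd2, a stretch-responsive protein of slow fibres, was the exception at 10.49, 10.20, 10.49 and 10.28 in AromhumL and 9.72, 9.63, 10.28 and 9.50 in WT (0.58, interval 0.23 to 0.94, adjusted p = 0.653 by limma). Its groups overlapped through WT 3. Myh7, the slow myosin heavy chain, stood at 0.35 (interval −0.24 to 0.93). Des, which encodes the intermediate filament desmin, was at 13.45 to 13.64 in AromhumL and 12.98 to 13.38 in WT, with no overlap (0.34, interval 0.07 to 0.61).

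Genes of muscle development and repair were mostly below 0, 14 of 17, with a median of −0.14 and 5 lower and 1 higher at an unadjusted p under 0.05, against 48.7%, 3.57% and 4.63% of all genes. With array brightness as a covariate the median was −0.03, with 9 of 17 below 0 and 0 lower at that limit. It was −0.07 without WT 4, −0.25 without WT 1, −0.26 without AromhumL 3 and −0.09 on the deposited processed values. Actc1, the actin of heart and of immature muscle, was at 7.70, 8.15, 7.95 and 7.36 in AromhumL and 7.94, 8.16, 9.56 and 9.73 in WT (−1.06, interval −1.76 to −0.35). Dlk1, a Notch-family ligand of fetal tissues and muscle growth, was at 5.85, 6.60, 6.29 and 6.27 against 6.35, 6.93, 7.96 and 8.11 (−1.09, interval −1.83 to −0.35). For both genes WT 3 and WT 4, the bright WT arrays, were higher than WT 1 and WT 2. With brightness as a covariate they stood at −0.49 and −0.37. The synapse genes Musk, a receptor kinase that clusters acetylcholine receptors, and Chrna1, a subunit of that receptor, stood at −0.48 and −0.41. Myf6, the myogenic factor of mature fibres, stood at −0.39, with 10.25 to 10.69 in AromhumL and 10.79 to 11.03 in WT. Myod1 stood at −0.02 and Myog at −0.29, and Pax7, which defines satellite cells, was not detected on enough arrays. The 6 measured satellite cell markers had a median of −0.23.

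Cell cycle genes were below 0 in 23 of 24 cases, with a median of −0.20, and 4 had an unadjusted p under 0.05, all lower, where 48.7% of all genes were below 0 and 3.57% lower at that limit. Mcm6, of the replicative helicase, was at 4.29, 5.07, 5.48 and 5.05 in AromhumL and 5.59, 5.19, 6.18 and 5.83 in WT (−0.73, interval −1.25 to −0.20). Stmn1, a tubulin-binding protein of dividing cells, was at 4.57, 4.94, 4.91 and 5.38 against 4.92, 4.96, 6.70 and 6.73 (−0.88, interval −1.67 to −0.09), the high values again being those of WT 3 and WT 4. The mitotic kinase Cdk1 stood at −0.63 and was detected on 3 WT arrays and 1 AromhumL array. The G1 cyclin Ccne1, detected on 4 WT and 0 AromhumL arrays, had a measured mean at least 1.11-fold lower (log2 interval −0.63 to −0.05). With brightness as a covariate the median was 0 and 12 of 24 were below 0, and the median was −0.09 without WT 4, −0.33 without WT 1, −0.10 with median scaling and −0.06 on the deposited processed values.

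The listed hormone receptor and steroid enzyme genes gave no lean. Akr1c18, given above at 1.09, is not in this list. Esr1, oestrogen receptor alpha, was at 7.97, 7.85, 7.96 and 7.84 in AromhumL and at 7.86, 7.21, 8.58 and 8.58 in WT (log2 −0.15, interval −0.75 to 0.45, adjusted p = 0.908 by limma). Its AromhumL arrays were nearly equal and lay inside the WT range. The 14 measured members of this list had a median of −0.01, 7 on each side. Hsd17b7 and Hsd17b12, hydroxysteroid dehydrogenases, both stood at −0.30. Akr1c14, another hydroxysteroid dehydrogenase, was detected on 2 WT and 0 AromhumL arrays. Its measured mean was at least 1.06-fold lower (log2 interval −0.53 to −0.02). Probes for oestrogen receptor beta and the progesterone receptor were detected on 0 arrays, and the androgen receptor and mouse aromatase, which no named probe covers, were not analysed here.

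The 12 oestrogen-responsive genes had a median of 0.02, 8 above 0 and 4 below. Greb1, a growth regulator induced by oestrogen, was at 4.98, 6.13, 5.91 and 5.86 in AromhumL and 5.30, 5.54, 4.94 and 5.22 in WT (0.47, interval −0.05 to 0.99, adjusted p = 0.664 by limma). AromhumL 2, 3 and 4 exceeded all WT arrays and AromhumL 1 did not. Another Greb1 probe also stood at 0.47 (interval 0.13 to 0.81, adjusted p = 0.653 by limma). That probe was dim, detected on 4 AromhumL and 2 WT arrays, and its groups overlapped. Nrip1, a corepressor of nuclear receptors, was detected on 3 WT and 0 AromhumL arrays. Its measured mean was at least 1.28-fold lower (log2 interval −0.95 to −0.21, adjusted p = 0.653 by limma). Igfbp5, Stc2, Bcl2 and Ctsd, whose response to oestrogen is known from human breast cancer cells, lay between −0.02 and 0.05. The remaining members were Ccnd1 at −0.22, Xbp1 at 0.19, Igfbp4 at 0.17, Cxcl12 at 0.02, Il20ra at −0.02 and Kiss1, described below, at 1.45.

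The 8 androgen-responsive and polyamine genes had a median of −0.14, with 6 below 0. Odc1, ornithine decarboxylase, the entry enzyme of polyamine synthesis, stood at 11.02 to 11.68 in AromhumL and 11.09 to 12.02 in WT (−0.18, interval −0.62 to 0.26, adjusted p = 0.83 by limma). Amd2, an S-adenosylmethionine decarboxylase, stood at −0.13 (interval −0.98 to 0.71); it has a near-identical copy, so its value is uncertain. Azin1, which protects ornithine decarboxylase from its inhibitor, was at 4.92 to 5.31 in AromhumL and 5.31 to 5.67 in WT (−0.35). The muscle ubiquitin ligases Fbxo32 and Trim63, which mark atrophy, stood at 0.11 (interval −0.45 to 0.67) and 0.56 (interval −0.14 to 1.26), with other Fbxo32 probes at 0.32 and 0.30. Trim63 stood at 0.23 without WT 1, and Fbxo32 at −0.15 without AromhumL 1 and −0.37 with brightness as a covariate. Their list of 27 atrophy and proteolysis genes had a median of −0.04. Psmd4, a proteasome subunit, was the 1 member with an unadjusted p under 0.05 (0.30), where 4.63% of all genes were higher at that limit.

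In the growth hormone axis Cish, an inhibitor of cytokine signalling that is induced by growth hormone through STAT5, had the largest mean rise of all probes. It was at 10.32, 9.71, 9.53 and 10.97 in AromhumL and at 9.05, 9.96, 7.26 and 8.17 in WT (2.86-fold, log2 1.52, interval 0.44 to 2.59, adjusted p = 0.653 by limma). WT 2 overlapped the AromhumL arrays, and with brightness as a covariate the value was 0.76. Socs2, a related inhibitor, stood at 0.22, Igf1 at 0.02 (another probe −0.15) and Igf2 at −0.09, and the 18 measured genes of the list had a median of 0.03.

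Of 16 macrophage markers 13 were above 0, at a median of 0.17, where 51.3% of all genes were above 0. At an unadjusted p under 0.05, 1 was higher and 1 lower, against 4.63% and 3.57% of all genes. The complement gene C1qa stood at 6.90, 7.94, 7.42 and 7.13 against 6.52, 7.28, 6.41 and 6.72 in WT (0.62, interval 0.16 to 1.07), and C1qb and C1qc stood at 0.28 and 0.34. Lyve1, of resident macrophages and lymphatic endothelium, went the other way at −0.64 (interval −1.09 to −0.18). AromhumL 3 had the list's highest mean, 8.46, against 7.56 to 7.99 in WT, and without it the median was −0.04. The median was 0.05 without WT 1, 0.34 without AromhumL 1 and 0.10 without AromhumL 2. With brightness as a covariate the median was 0.51, with 14 of 16 above 0, and 5 higher and 1 lower at an unadjusted p under 0.05. In that fit 838 of all 19004 probes (4.41%) were under the same limit, 48.9% of them higher. Mesothelial markers, which would mark the lining of the abdominal wall, were above 0 in 7 of 9 cases (median 0.18), with a mean level of 5.75 to 6.44 in WT and 5.86 to 6.57 in AromhumL. That median was 0.38 with brightness as a covariate, 0.36 without AromhumL 1, 0.10 without AromhumL 2, 0.08 without WT 3 and 0.07 on the deposited processed values. Endothelial markers had a median of −0.11, Schwann cell markers 0.10, smooth muscle and pericyte markers −0.02 and mast cell markers −0.06. Epithelial and skin markers had a median of −0.01 and brown adipocyte markers −0.11. Only 1 lymphocyte marker and 2 neutrophil markers were measured.

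The remaining lists stayed close to 0. Medians were −0.06 for 35 citrate cycle and oxidative phosphorylation genes, −0.01 for 23 genes of fatty acid uptake and oxidation, −0.04 for 19 ribosomal protein genes, 0.04 for 23 TGF-beta signalling genes, −0.02 for 13 clock genes and 0.10 for 22 immediate early and heat shock genes. Their members with the smallest p were Ndufv1, a complex I subunit (0.29), Mlycd, malonyl-CoA decarboxylase (0.34), Rplp0, a stalk protein of the large ribosomal subunit (0.42), the activin receptor Acvr2b (0.49, and −0.03 with brightness as a covariate), the deubiquitinase Usp2 (−0.47, other probes −0.38 to 0.26) and the transcription factor Klf4 (−0.35, other probes −0.04 and 0.21).

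**Figure D4:**
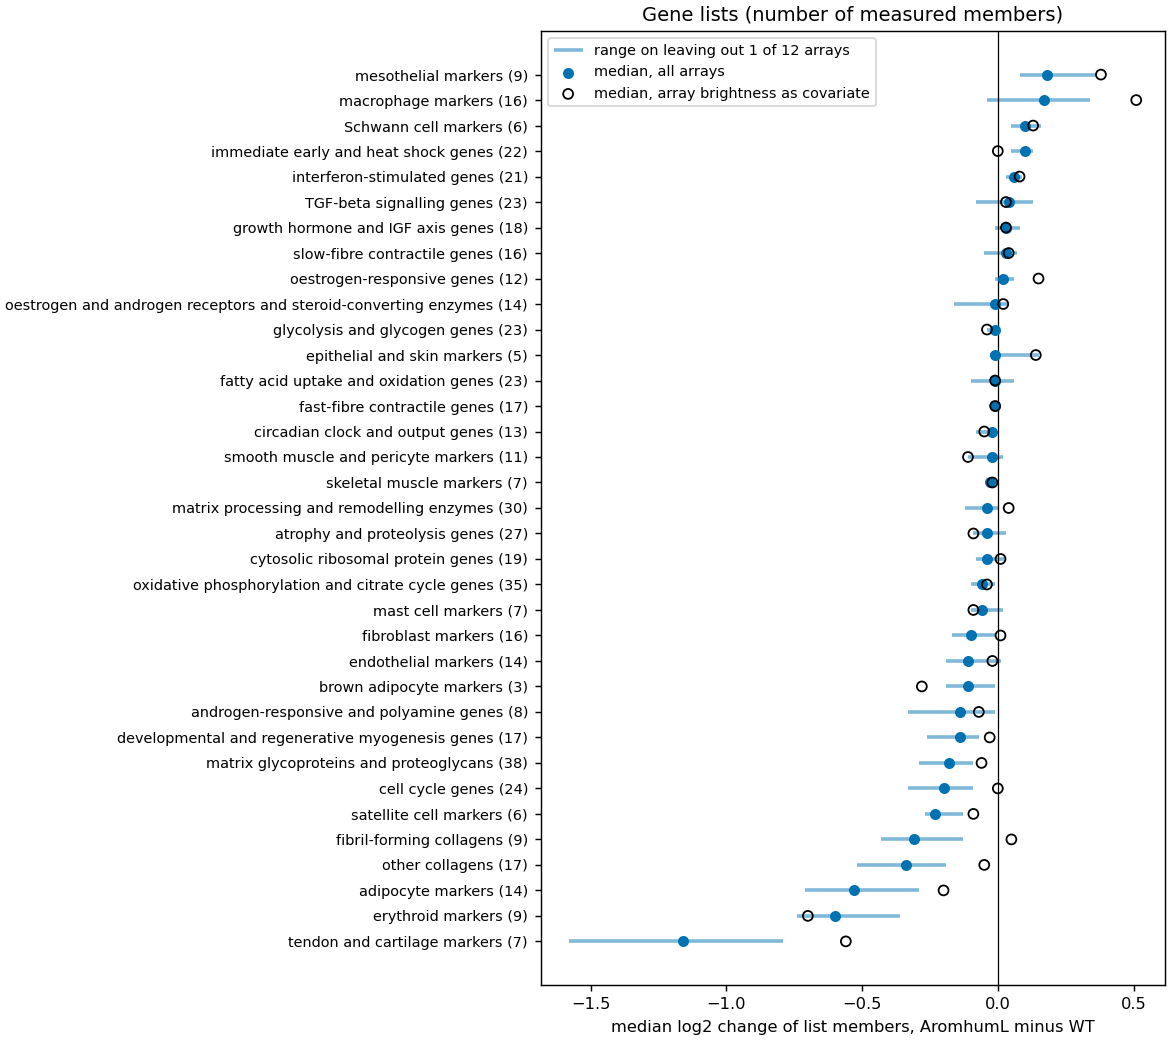
Median log2 change (AromhumL minus WT, horizontal) of the members of each gene list; filled points use all 12 arrays, bars span the medians on leaving out 1 array, and open circles are medians with array brightness as a covariate. Collagen, cell cycle and adipocyte medians move towards 0 with the covariate, whereas the erythroid median goes from −0.60 to −0.70 and the macrophage median from 0.17 to 0.51.

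A few genes differed among the AromhumL arrays themselves. Kiss1, the kisspeptin precursor, was at 4.72, 9.49, 8.97 and 6.06 in AromhumL, so that AromhumL 2 and 3 stood above every WT array (6.45, 7.55, 4.33 and 5.11) and AromhumL 1 and 4 among them (log2 1.45, interval −0.37 to 3.26, adjusted p = 0.685 by limma). The AromhumH arrays were at 10.77, 11.48, 10.36 and 10.68. Myh8, the perinatal myosin heavy chain, was at 7.64, 9.31, 11.37 and 7.44 in AromhumL and between 8.19 and 8.97 in WT (0.36, interval −1.04 to 1.75), and its other probes stood at 0.39 and 0.34. On the brightest probe AromhumL 3 lay within the range of the AromhumH arrays, which reached 13.11. On the other Myh8 probes AromhumL 3, at 9.17 and 8.17, lay just below the lowest AromhumH array (9.17 and 8.33 as rounded). Timp1, an inhibitor of metalloproteinases, was at 8.30 and 7.98 on AromhumL 2 and 3 and at 6.91 and 6.76 on AromhumL 1 and 4, against 6.66 to 7.49 in WT. Krt8, a keratin of simple epithelia, was at 7.26 on AromhumL 2 and at 5.57 to 6.11 on the others. The mesothelial gene Msln was at 7.30 on AromhumL 2, above the WT range of 6.08 to 7.09, at 6.06 on AromhumL 1, just below it, and at 7.06 and 7.05 on AromhumL 3 and 4.

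**Figure D5:**
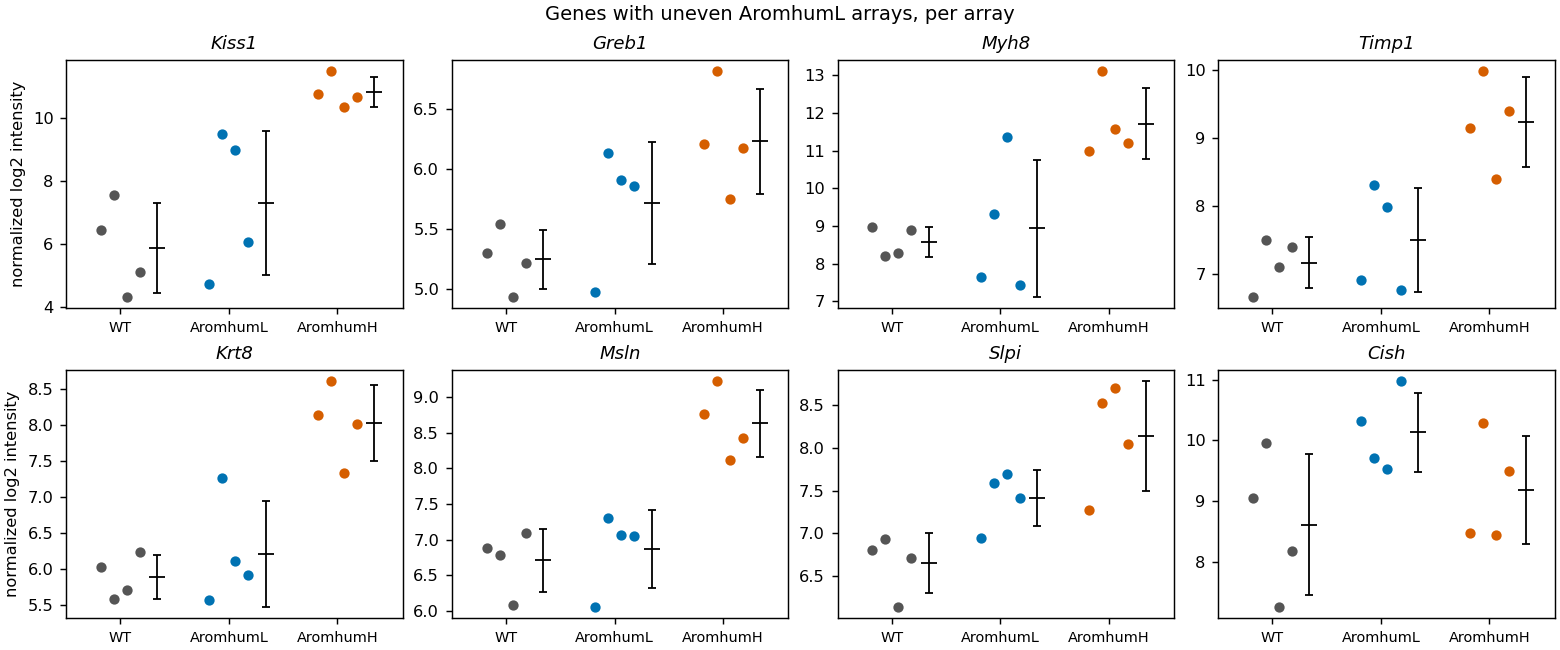
Normalized log2 intensity (vertical) of 8 genes on each array of WT, AromhumL and AromhumH; points are arrays and the bar beside them is the mean ± SD (n = 4). AromhumL 2 and 3 are the higher AromhumL arrays for Kiss1, Myh8, Timp1 and Krt8, and for Kiss1, Krt8 and Msln all 4 AromhumL arrays are below all AromhumH arrays.

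AromhumL was set directly against AromhumH to see where the lines differed. The direct contrast passed for 901 of 19004 probes (4.74%, limma adjusted p under 0.05), of which 544 were higher in AromhumH (2.86%) and 357 lower (1.88%). This number was 0 with array brightness as a covariate, 58 without AromhumL 1, 207 without AromhumL 4 and 459 without AromhumL 2. Leaving out AromhumH 1 gave 194 probes, AromhumH 2 gave 122, AromhumH 4 gave 101 and AromhumH 3 gave 1684, and leaving out WT 1 gave 1385. Kiss1 was 3.51 log2 units lower in AromhumL than in AromhumH (SE 0.855, adjusted p = 0.0321), Krt8 1.81 lower (SE 0.312, adjusted p = 0.012), Timp1 1.74 lower (SE 0.351, adjusted p = 0.0182), Msln 1.76 lower (SE 0.283, adjusted p = 0.0101) and Myh8 2.78 lower (SE 0.657, adjusted p = 0.0297). Of 12 fits that left out 1 array, Msln passed in 12, Krt8 in 11, Timp1 in 8, Kiss1 in 7 and Myh8 in 6. Without AromhumL 1 the adjusted p was 0.0502 for Krt8, 0.0735 for Timp1, 0.0938 for Kiss1 and 0.0971 for Myh8. Without AromhumL 4, AromhumH 2 or AromhumH 4 it was 0.0521 to 0.085 for Timp1, Kiss1 and Myh8. Without AromhumH 1 it was 0.0729 for Kiss1 and 0.0523 for Myh8, and without AromhumL 2 it was 0.0502 for Myh8. With the brightness covariate their adjusted p-values were between 0.28 and 0.442.

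Some matrix and growth genes passed the direct contrast as well. Eln was lower in AromhumL by 1.82 log2 units (SE 0.258, adjusted p = 0.00878), C1qtnf3 by 1.84 (SE 0.299, adjusted p = 0.0101) and Mcm6 by 1.52 (SE 0.247, adjusted p = 0.0101), each in 12 of 12 fits that left out 1 array. These values are of the brightest probe of each gene. Another Eln probe was lower by 0.44 and did not pass (adjusted p = 0.113 by limma). The other probes of C1qtnf3 and Mcm6 passed (adjusted p 0.0171 to 0.0328 by limma). Mfap4 was lower by 1.38 (SE 0.245, adjusted p = 0.0124) in 11 of those fits, the exception being the fit without AromhumL 1 (adjusted p = 0.0543). In the other direction Amd2 was higher in AromhumL by 1.64 (SE 0.398, adjusted p = 0.0321), in 6 of 12 such fits (adjusted p 0.0619 to 0.0997 without AromhumL 1, 2 or 4 or AromhumH 1, 2 or 4), while its AromhumL arrays, at 8.81, 8.92, 7.46 and 8.47, lay within the WT range of 7.36 to 9.59. Another Amd2 probe, at −0.78 for AromhumH minus AromhumL, did not pass (adjusted p = 0.111 by limma). With brightness as a covariate none of these genes passed at its brightest probe (adjusted p 0.253 to 0.449). AromhumH arrays had a mean raw intensity of 296.1 to 373.2, above every AromhumL array, so the parts of line and of brightness cannot be told apart in this contrast. C1qtnf3, Mcm6 and Mfap4 were also picked by their AromhumL versus WT values, which use the same AromhumL arrays. Each line was compared with the same WT arrays, and Eln stood at 1.25 in AromhumH versus WT and at −0.57 in AromhumL versus WT. Ankrd2 stood at 1.15 in AromhumH versus WT and 0.58 in AromhumL versus WT, and Slpi at 1.49 and 0.77.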

How the data were processed

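RNA of 12 lower abdominal muscle samples was hybridised to Illumina mouse arrays. Each probe has a non-normalized intensity and a detection p-value, per the file headers. The deposited processed values appear to be log2 (same ranks as the intensities, median 7.17 on every array, not centred), whose offset is not given in the sources used here. Group and replicate came from the titles. The number of arrays limits the precision.

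Intensities were background-corrected and quantile-normalized with neqc (offset 16) of limma 3.58.1 in R 4.3.3. Probes detected at p under 0.05 on at least 4 of 12 arrays were fitted with lmFit and eBayes, 1 mean per group over all 12 arrays (9 residual and 6.68 prior degrees of freedom), adjusted over 19004 probes. The script was tested on simulated data. Exact permutation tests, two-sided, were used for array measures. Of 45281 probes 34885 had 1 gene symbol in the platform annotation, 18 several and 10378 none, and only the first were named. A gene is its brightest detected named probe; 3944 genes had others. Changes are log2 differences of group means.

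Members and gene lists were chosen with earlier results of these data known, and the lists are described, not tested. Named genes are, per direction, the 10 with the smallest p and the 5 largest changes without overlap, up to 5 switching detection, up to 4 members of each list, a set of hormone, matrix and muscle genes, and genes whose probes disagree; further list members given as examples were chosen after their values were seen. Replicate numbers were not taken as pairs. Array position and scan date are not given, so no such batch was tested. Alternatives were the deposited values, background, offset, scaling, filters, gene level, 8 arrays, variance model, brightness covariate, replicate block and leaving out each array.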

Additional observations from a re-analysis of the deposited data

Results flagged for a closer look

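Single arrays stood apart from the other 3 of their group, by Dixon's test at its 95% level, in 10 of 296 groups of 4 values (3.38%), where chance flags about 5%. In WT they were the values of Nkain4 on WT 2 (5.06), Cidea on WT 3 (9.45), S100a8 on WT 1 (5.50) and Mylk2 on WT 1 (13.26), and the mean of the brown adipocyte markers on WT 3 (10.79), a list that holds Cidea. In AromhumL they were Sapcd1 on AromhumL 1 (4.54), Kit on AromhumL 2 (5.40), Usp2 on AromhumL 3 (10.40), the mean of the immediate early and heat shock genes on AromhumL 4 (8.32) and the mean raw intensity of AromhumL 1 (221.6).

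Of 109 named genes, 22 had opposite signs against WT in the 2 lines and a direct AromhumH minus AromhumL difference past the threshold (limma, adjusted p 0.00878 to 0.0428), which is 20.2% of them against 453 of all 10575 genes (4.28%). Most of the named genes were picked by their AromhumL versus WT values, which use the same AromhumL arrays, so the larger share is no result about them. Against WT 0 probes passed in AromhumL, and of these genes Eln alone passed in AromhumH (adjusted p = 0.0412 by limma). The signs are therefore those of mean differences, and opposite directions were not shown for any of the 22. Some values against WT were near 0, such as those of Pfkfb3 (−0.02), Cldn11 (0.04) and Fam185a (0.07) in AromhumH and of Igf2 (−0.09) in AromhumL. Higher in AromhumH were Fam185a at 0.78, Cldn11 at 0.80, Cdc26 at 0.83, Mfap4 at 1.38, Actc1 at 1.54, Dlk1 at 1.70, C1qtnf3 at 1.84, Lyve1 at 1.18, Mcm6 at 1.52, Cdk1 at 1.12, Stmn1 at 1.54, Lox at 0.99, Sox18 at 0.69, Col1a2 at 1.84, Col14a1 at 0.91, Eln at 1.82 and Igf2 at 0.98, as log2 differences. Lower in AromhumH were Pfkfb3 at −0.70, Rnf114 at −0.72, Umps at −0.66, Zhx1 at −0.70 and Inmt at −2.21. All are values of the brightest probe. The other probes of Eln, Fam185a, Dlk1, Col14a1, Rnf114, Umps, Zhx1 and Inmt did not pass, while those of Actc1, C1qtnf3 and Mcm6 did. With array brightness as a covariate 0 of the 22 passed (adjusted p 0.192 to 0.581), and without AromhumL 1, the dimmest array, 5 did (adjusted p 0.0328 to 0.12). The part of array brightness in these differences was not tested beyond those fits.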

How the results depend on the processing

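The count of changed probes between AromhumL and WT was 0 in the fit to all arrays and in each of 23 alternatives, with smallest adjusted p-values from 0.261 (without WT 1) to 0.999 (without WT 4) by limma and between 705 and 2263 probes at an unadjusted p under 0.05 on leaving out 1 array. Without the detection filter 2922 of 45281 probes were under that limit. The number of probes with a 95% interval within 1 log2 unit was 18043 to 18525 on leaving out 1 array, 44475 of 45281 without the detection filter and 10244 of 10575 with 1 probe a gene, the last pair differing because other numbers of probes were tested. The difference in mean raw intensity was −75.748 to −44.302 on leaving out 1 array, and its exact permutation p was 0.0286 without WT 1. At a detection p under 0.01 the difference in detected probes was −1108.2 (exact permutation p = 0.0286), the cause of which was not tested. On leaving out 1 array the difference in detected probes was −807.33 to −489.08. Deviations of same-numbered AromhumL and WT arrays correlated at 0.0349, 0.329, 0.0537 and 0.21. The same-numbered array was the best match for numbers 2 and 4 but not for 1 and 3. The numbers were not taken as pairs in the main fit. With the replicate number as a block 0 probes passed (smallest adjusted p 0.686 by limma, with 1364 under the unadjusted limit and 18474 intervals within 1 log2 unit). Probes called between the lines numbered 412 on the deposited values, 70 without the detection filter and 1461 with median scaling, against 901. On the deposited values 71 of 109 named genes had a change over 1.5 times smaller, 0 turned sign, and the cause was not tested.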

Other observations

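Among the probes of 3944 genes measured more than once, all probes lay on the same side of 0 for 2021 genes. For 1 gene, Zhx1, a zinc-finger and homeobox protein, a pair of probes separated the groups in opposite directions: the brightest stood at 0.50 (AromhumL 9.27 to 9.40, WT 8.53 to 9.10) and another at −0.31, while the other two stood at 0.40 and 0.04.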
